A study of Mus musculus with 9 samples.

Results

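The genes described here are the ubiquitin-conjugating (E2) enzyme genes of MC38 cells, an established mouse colon carcinoma line. They were taken by symbol, as every gene whose symbol begins with Ube2, which gave 34 of the 16509 genes in the expression table. Of these, 33 passed the filter on low counts and were tested among 11949 genes, and Ube2d2b, with 0 to 2 counts in a library, was not. Messenger RNA was sequenced from control cells (Ctrl, 3 libraries), cells given copper chloride with cystine (Cu-Cys, 3 libraries) and cells given Cadict (3 libraries), a nanodrug that joins copper and cystine with glucose oxidase (GOx) and the EGFR-binding peptide GE11. All groups were the same line, the labels name DMSO for the control where the paper names PBS, and no dose or time of treatment is given for these libraries. The table abbreviates the treatments as CC, read as the initials of Cu-Cys, and CCGE, read as Cadict from its components. The paper calls its replicates biological and its cell experiments independently repeated, while the labels do not say whether these libraries came from separate cultures.

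Ubiquitin is passed from an E1 activating enzyme to a cysteine of an E2 and from there, with the help of an E3 ligase, to a substrate. The E2 often decides which lysine of ubiquitin is extended, and so whether a chain sends a protein to the proteasome or serves as a signal. Some E2s carry NEDD8 or ISG15 in place of ubiquitin, the UEV proteins Ube2v1 and Ube2v2 have the E2 fold without the active cysteine, and Ube2cbp, also called Ube3d, has the prefix but is an E2-binding protein rather than an E2.

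Each library held 17905771 to 18293056 counts. A gene with no count may still have up to 3, which is 0.13 to 0.14 CPM (counts scaled to a common total) for Ctrl and Cu-Cys and 0.25 to 0.26 CPM for Cadict, counting error only. Levels below are CPM scaled by TMM, a method that takes most genes to be at the same level in all libraries. Its factors were 1.26 to 1.27 in Ctrl, 1.21 in Cu-Cys and 0.64 to 0.67 in Cadict libraries, so the choice of scaling sets the zero of every Cadict comparison. With library totals in place of TMM the median log2 fold change of all genes in Cadict against Ctrl moved from -0.13 to -1.08, a shift of -0.95, and directions below are given with the scalings under which they turned. Of 8 markers of colon epithelium, 6 were in the table and summed to 5.32 to 6.83 CPM in Ctrl libraries and 24.0 to 26.1 in Cadict libraries. Epcam, an epithelial marker among them, had 0 counts in all Ctrl and Cu-Cys libraries, and Cdh1 was the highest, at a mean of 4.86 CPM in Ctrl. The 4 fibroblast markers summed to 617 to 645 CPM in Ctrl, 341 to 349 in Cu-Cys and 133 to 145 in Cadict libraries, with Col1a2 the highest, and the 4 immune and 3 endothelial markers in the table summed to no more than 1.31 and 3.61 CPM in any library. These markers moved with the treatment, and their part in the results below was not tested. Cadict replicate 2 stood apart from Cadict replicates 1 and 3, with a mean chi-square per gene of 14.7 and 23.3 against 3.64 between the other two.

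Nearly every Ube2 gene differed between Cadict and Ctrl libraries, as did most genes of the table, and the genes moved in both directions. Of the 33 tested genes, 24 were higher in Cadict than in Ctrl libraries and 8 were lower, with adjusted p not above 0.05 (edgeR's quasi-likelihood test, Benjamini-Hochberg adjustment over all 11949 genes), while 40.6% of all tested genes were higher and 47.1% lower. At the study's threshold, a fold change of at least 2 with an adjusted p of at most 0.001, 17 were higher and 4 lower, against 20.7% and 27.1% of all genes. The median log2 fold change was 1.01 over the Ube2 genes and -0.13 over all genes. With library totals 16 were higher and 15 lower, against 18.1% and 73.1% of all genes, and 7 and 8 of them passed the 2-fold threshold, against 6.93% and 51.5%. The median of the Ube2 genes was then 0.06 against -1.08. With the deposited TPM, which divides by transcript length, 11 were higher and 17 lower, against 11.9% and 79.9% of all genes, and 4 and 10 were past the 2-fold threshold, against 3.26% and 54.2%, with medians of -0.29 and -1.13 on the log2(TPM + 1) scale. Above the median gene lay 25 of the 33 with TMM, 25 with library totals and 24 with TPM. Library totals moved each Ube2 gene by -0.96 to -0.94 and the median of all genes by -0.95, so these counts could hardly change with the scaling.

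**Figure D1:**
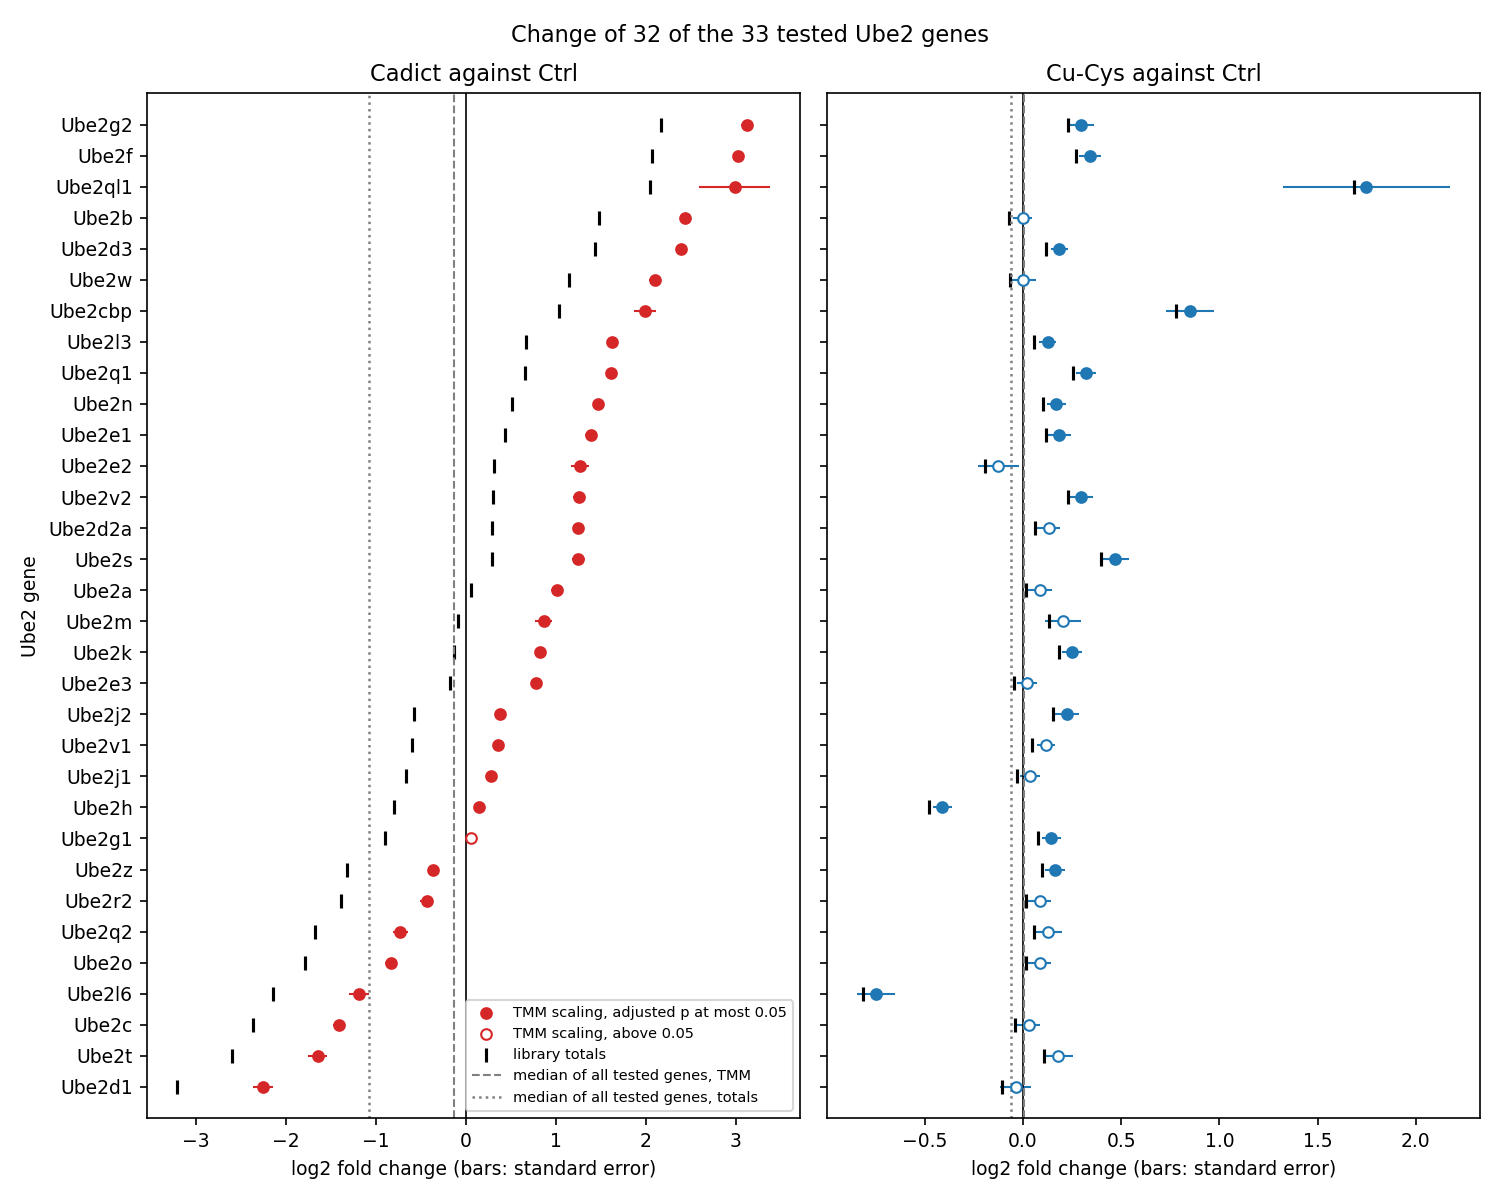
Log2 fold change of 32 of the 33 tested Ube2 genes in Cadict against Ctrl (left) and Cu-Cys against Ctrl (right), with the standard error as bars, filled points at an adjusted p of at most 0.05, black ticks for library totals, and dashed and dotted lines for the median of all tested genes under each scaling. The left panel runs from -2.25 (Ube2d1) to 3.12 (Ube2g2), and the ticks lie about 0.95 to the left of the points, so that the order of the genes is nearly the same while the zero moves.

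The direction of 12 of the 24 rises held under all of DESeq2's size factors, library totals and TPM with a pseudocount of 1 or 0.1, among them Ube2b, Ube2cbp, Ube2d3, Ube2e1, Ube2f, Ube2g2, Ube2l3, Ube2n, Ube2q1, Ube2ql1 and Ube2w. So did that of all 8 falls, of Ube2c, Ube2d1, Ube2l6, Ube2o, Ube2q2, Ube2r2, Ube2t and Ube2z. Library totals (by -0.96 to -0.94) and TPM lowered the log2 fold change of every tested Ube2 gene, so a fall could not turn under them. In the other 12 rises the sign turned under at least 1 of these 4 settings. In none of the 33 genes did Cadict and Ctrl libraries overlap in TMM-scaled CPM, Ube2g1 included, which did not pass the test, and the same held for 87.5% of all tested genes.

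The UBE2D and UBE2E enzymes and Ube2w work with many RING ligases and often place the first ubiquitin on a substrate. Under TMM 6 of the 7 tested rose in Cadict against Ctrl and Ube2d1 fell, where 40.6% of all tested genes rose and 47.1% fell. Ube2d3, a broadly used E2, stood at 389, 389 and 387 CPM in Ctrl libraries, 442, 451 and 434 in Cu-Cys and 2035, 2069 and 2022 in Cadict. All Cadict libraries were far above the rest and the Ctrl libraries were the lowest. The log2 fold change in Cadict against Ctrl was 2.39 (standard error (SE) 0.05, edgeR adjusted p = 5.34e-16), that is 5.26-fold, and stayed positive with library totals (1.44) and TPM (1.12). Its close relative Ube2d1 went the other way, at 25.5, 27.2 and 27.4 CPM in Ctrl, 27.3, 24.9 and 26 in Cu-Cys and 5.52, 4.36 and 6.88 in Cadict libraries. Ctrl and Cu-Cys overlapped and every Cadict library lay below both. Ube2d1 fell by 2.25 on the log2 scale (SE 0.11, edgeR adjusted p = 2.42e-11), 4.77-fold lower, and had the lowest fold change of all Ube2 genes under TMM. Its log2 fold change was -3.205 with library totals and -3.26 with TPM. Ube2w, which ubiquitinates the amino terminus of proteins, was at 29.2, 33.4 and 31.6 CPM in Ctrl, 31.2, 32.8 and 30.2 in Cu-Cys and 137, 138 and 129 in Cadict libraries. Its rise of 2.101 (SE 0.06, edgeR adjusted p = 4.57e-14) set all Cadict libraries above the rest, and Ctrl and Cu-Cys overlapped. Ube2e1 rose by 1.39 under TMM, by 0.44 with library totals and by 0.07 with TPM, where it no longer passed the test. The rises of Ube2d2a (1.25) and Ube2e2 (1.27) turned to -0.06 and -0.04 with TPM, and that of Ube2e3 (0.78) turned to -0.17 with library totals and -0.54 with TPM.

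Ube2a and Ube2b are the mouse RAD6 proteins, which ubiquitinate histone H2B and, with Rad18, PCNA at stalled replication forks. Ube2b was at 94.9, 96.2 and 94.7 CPM in Ctrl, 91.6, 97.6 and 96.2 in Cu-Cys and 523, 532 and 492 in Cadict libraries. The Ctrl and Cu-Cys libraries overlapped, and all Cadict libraries were above them. Ube2b rose by 2.44 (SE 0.05, edgeR adjusted p = 1.19e-15), 5.42-fold, and kept the direction with library totals (1.48) and TPM (1.14). Ube2a rose by 1.01 under TMM, which came to 0.06 with library totals, not past the test, and to -0.29 with TPM. Ube2t, the E2 of the Fanconi anaemia pathway for DNA crosslink repair, fell. It was at 17.9, 21.2 and 19.7 CPM in Ctrl, 21.7, 21.1 and 23.6 in Cu-Cys and 6.03, 6.36 and 6.38 in Cadict libraries. Cu-Cys overlapped Ctrl and every Cadict library was lower. The fall was 1.65 on the log2 scale (SE 0.10, edgeR adjusted p = 3.68e-10), 3.13-fold lower. The log2 fold change was -2.60 with library totals and -2.82 with TPM.

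The anaphase-promoting complex (APC/C) uses Ube2c to start chains on mitotic substrates and Ube2s to extend them. The pair parted in Cadict libraries. Ube2c was at 237, 237 and 226 CPM in Ctrl, 243, 237 and 234 in Cu-Cys and 84.7, 97.9 and 81.5 in Cadict libraries. Ctrl and Cu-Cys overlapped and the Cadict libraries lay below them. Ube2c fell by 1.41 (SE 0.06, edgeR adjusted p = 5.39e-12), 2.65-fold lower. Its log2 fold change was -2.36 with library totals and -2.73 with TPM. Ube2s was at 124, 131 and 127 CPM in Ctrl, 171, 179 and 179 in Cu-Cys and 290.4, 349 and 271 in Cadict libraries, 3 groups that did not overlap under TMM. It rose by 1.25 (SE 0.07, edgeR adjusted p = 1.95e-10) in Cadict against Ctrl, which came to 0.30 with library totals and to -0.08 with TPM.

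The upstream sequences of both genes and of Ube2t are shown because cell-cycle genes often carry CCAAT boxes and a CHR element just before their start, and the 3 genes did not move together. RefSeq promoters on GRCm38.p6 were matched by symbol for 26 of the 33 tested genes, 37 promoters in all. Among those not matched were Ube2d2a, Ube2e3, Ube2g2, Ube2o, Ube2v2 and Ube2w. Each line gives the 250 bases before the start, 5′ to 3′ on the gene's strand, with CCAAT and TTTGAA (CHR) on either strand in capitals. Ube2c lies at chr2:164769679-164769928 on the plus strand, Ube2s at chr7:4812341-4812590 on the minus strand and Ube2t at chr1:134962315-134962564 on the plus strand.
Ube2c: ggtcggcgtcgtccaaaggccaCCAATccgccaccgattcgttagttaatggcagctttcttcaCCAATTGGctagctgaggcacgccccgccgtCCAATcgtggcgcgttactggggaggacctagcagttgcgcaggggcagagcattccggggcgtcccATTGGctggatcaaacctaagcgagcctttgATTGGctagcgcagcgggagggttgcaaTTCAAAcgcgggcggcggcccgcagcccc
Ube2s: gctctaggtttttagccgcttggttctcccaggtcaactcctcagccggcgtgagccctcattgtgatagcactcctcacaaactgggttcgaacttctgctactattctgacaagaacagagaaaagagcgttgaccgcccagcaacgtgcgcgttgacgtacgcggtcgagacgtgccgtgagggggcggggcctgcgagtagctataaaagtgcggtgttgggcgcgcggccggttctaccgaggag
Ube2t: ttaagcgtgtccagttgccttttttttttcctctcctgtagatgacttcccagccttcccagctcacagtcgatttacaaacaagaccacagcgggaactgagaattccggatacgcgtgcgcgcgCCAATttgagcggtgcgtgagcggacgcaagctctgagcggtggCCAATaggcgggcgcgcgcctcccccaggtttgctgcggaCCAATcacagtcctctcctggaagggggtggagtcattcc
Ube2c held 6 matches to CCAAT, of which 2 overlap, and 1 to TTTGAA, found on the minus strand 24 to 29 bases before the start. At least as many CCAAT matches stood in 0.0578% of the 32851 promoters in the table. Ube2t held 3 matches to CCAAT, as many or more than which stood in 2.79% of promoters, and none to TTTGAA, and Ube2s held neither. Over all promoters 33.8% held CCAAT and 16% held TTTGAA, against 6 and 3 of the 37 Ube2 promoters. CCAAT stood in promoters of Ube2c and Ube2t, which fell in Cadict against Ctrl, and of Ube2d3, Ube2e1, Ube2f and Ube2l3, which rose. TTTGAA stood in promoters of Ube2c and Ube2z, which fell, and of Ube2f, which rose. Among other motifs searched on both strands, the interferon element (GAAA, 2 free bases, GAAA) stood in 2.98% of promoters and the heat shock element (GAA, TTC and GAA, or TTC, GAA and TTC, with 2 free bases between) in 0.466%, and both in 0 of the 37 Ube2 promoters. The metal response core TGCACNC or TGCGCNC stood in 13 of the 37 Ube2 promoters and 21.4% of all, and the antioxidant element TGACNNNGC in 4 of 37 and 10.2% of all. These matches describe the letters of the window and no binding was measured.

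Ube2n is the E2 that builds lysine-63 chains, and it does so only in a pair with Ube2v1 or Ube2v2. All 3 rose under TMM in Cadict against Ctrl, as did 40.6% of all tested genes. Ube2n rose by 1.47 and kept the direction with library totals (0.51) and TPM (0.24). Ube2v2 rose by 1.26, which was 0.30 with library totals and -0.05 with TPM. Ube2v1 rose by 0.36, which turned to -0.60 and -0.95. Of the 50-base stretches of Ube2v1 transcripts in GENCODE M21, 58.0% also occur in another annotated gene, Gm20431 the first of them, so its reads cannot be assigned with certainty.

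Ube2g1, Ube2g2, Ube2j1, Ube2j2, Ube2k and Ube2r2 build lysine-48 chains or serve degradation at the endoplasmic reticulum. Under TMM 4 of the 6 rose and 1 fell, against 40.6% and 47.1% of all genes, and Ube2g1 did not pass the test. Ube2g2, which serves degradation of membrane proteins, had the largest rise of all Ube2 genes. It was at 29.9, 33.1 and 34.3 CPM in Ctrl, 40.6, 38.3 and 40.6 in Cu-Cys and 287, 295 and 266 in Cadict libraries. The 3 groups did not overlap, and Cadict stood far above the others. The log2 fold change was 3.12 (SE 0.06, edgeR adjusted p = 1e-15), 8.72-fold, and it was 2.17 with library totals and 1.79 with TPM. Ube2g1 was at 76.95, 77.3 and 77.4 CPM in Ctrl, 81.0, 87.7 and 87.4 in Cu-Cys and 81.0, 80.3 and 79.5 in Cadict libraries, and its log2 fold change of 0.06 in Cadict against Ctrl (edgeR adjusted p = 0.314) turned to -0.90 with library totals and -1.21 with TPM, both past the test. Ube2k rose by 0.82, Ube2j2 by 0.39 and Ube2j1 by 0.29, and all of them turned negative with library totals (-0.13, -0.57 and -0.67). Ube2r2, a CDC34-type E2 of cullin-RING ligases, fell by 0.43 under TMM, by 1.39 with library totals and by 1.62 with TPM.

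The E2s of the ubiquitin-like modifiers did not move as one. Ube2f and Ube2m both carry NEDD8, Ube2f mainly to Cul5 and Ube2m to the other cullins. Ube2f was at 27.7, 29.0 and 29.8 CPM in Ctrl, 35.5, 37.1 and 36.9 in Cu-Cys and 239, 240.5 and 226 in Cadict libraries. It rose by 3.03 (SE 0.05, edgeR adjusted p = 2.93e-16), 8.16-fold, with no overlap between any of the groups, and by 2.08 with library totals and 1.71 with TPM. Ube2m was at 43.7, 48.8 and 44.0 CPM in Ctrl, 52.0, 50.5 and 54.8 in Cu-Cys and 81.7, 97.4 and 70.0 in Cadict libraries. Its rise of 0.87 (SE 0.09, edgeR adjusted p = 2.71e-07) turned to -0.09 with library totals, not past the test, and to -0.50 with TPM. Ube2l6, the interferon-inducible E2 of ISG15, was at 18.2, 18.8 and 17.7 CPM in Ctrl, 11.6, 11.0 and 10.03 in Cu-Cys and 8.50, 9.41 and 6.21 in Cadict libraries. All treated libraries lay below all Ctrl libraries. Ube2l6 fell by 1.18 (SE 0.12, edgeR adjusted p = 8.8e-08) in Cadict against Ctrl, 2.27-fold lower. Its log2 fold change was -2.14 with library totals and -2.35 with TPM.

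**Figure D2:**
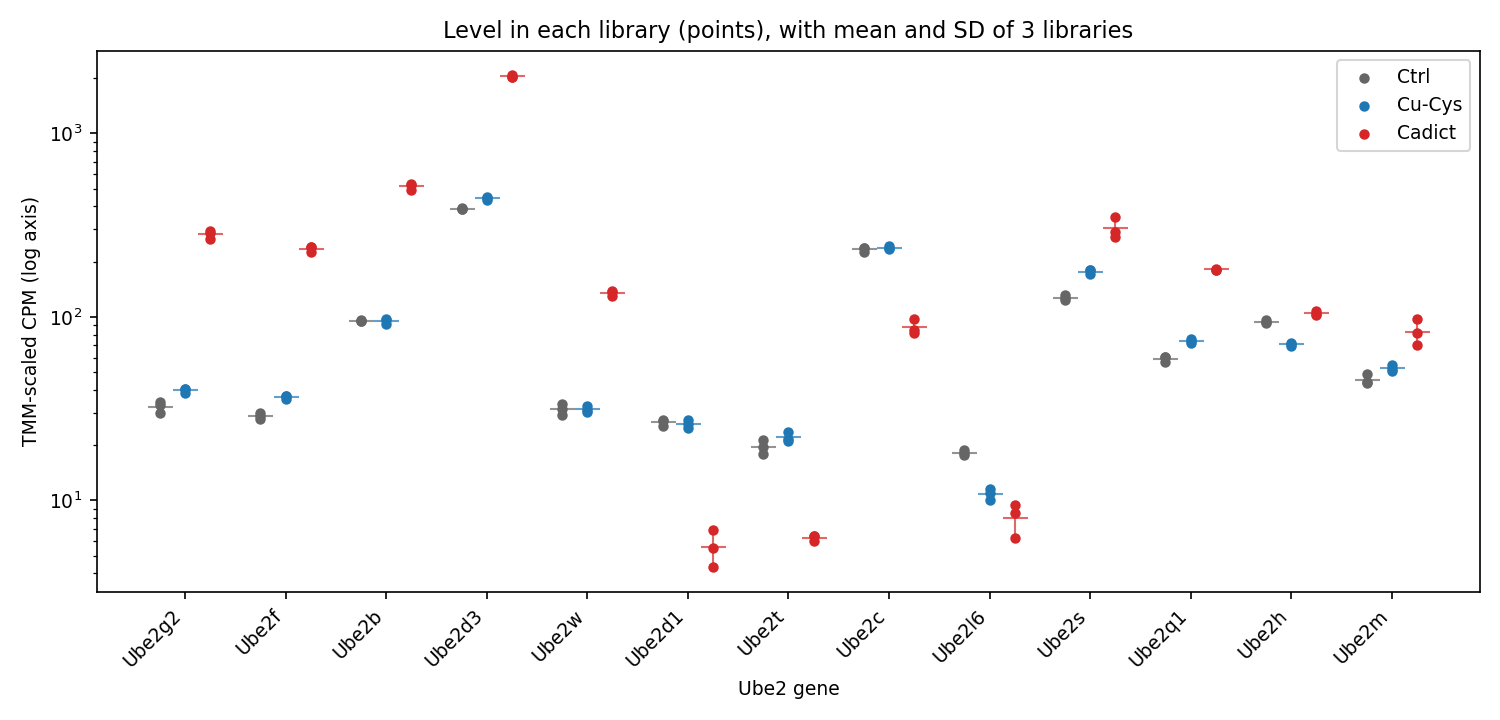
TMM-scaled CPM (log axis) of the 13 Ube2 genes plotted by library, with a point for each library and a line and bar for the mean and SD of the 3 libraries of a group. Ube2g2, Ube2f, Ube2b, Ube2d3 and Ube2w stand highest in Cadict libraries, and Ube2d1, Ube2t, Ube2c and Ube2l6 lowest; under library totals all Cadict changes move down by about 0.95 on the log2 scale and Ube2m and Ube2h no longer lie higher, nor does Ube2s with TPM.

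Ube2l3, which serves HECT and RBR ligases such as parkin, rose by 1.63 and kept the direction with library totals (0.67) and TPM (0.32). Ube2h, the E2 of the CTLH ligase, was at 93.4, 92.9 and 95.6 CPM in Ctrl, 71.9, 69.1 and 71.2 in Cu-Cys and 102, 108 and 103 in Cadict libraries. Its Cu-Cys libraries were the lowest and its Cadict libraries the highest. The Cadict rise over Ctrl was 0.15 (SE 0.05, edgeR adjusted p = 0.00791). It did not pass the test with at least 10 counts in every library (0.09, edgeR adjusted p = 0.0841) or with no filter on low counts (0.07, edgeR adjusted p = 0.256), and it turned to -0.80 with library totals and -1.11 with TPM. Among the large or atypical members 3 rose and 3 fell under TMM, against 40.6% and 47.1% of all genes. Ube2q1 was at 60.8, 60.1 and 56.7 CPM in Ctrl, 73.9, 72.0 and 76.1 in Cu-Cys and 182, 181 and 181 in Cadict libraries. The groups did not overlap, and the rise in Cadict against Ctrl was 1.61 (SE 0.05, edgeR adjusted p = 8.03e-14), or 0.66 with library totals and 0.30 with TPM. Its relative Ube2q2 fell by 0.72, Ube2o, a combined E2 and E3, by 0.83, and Ube2z, which takes ubiquitin from the E1 Uba6, by 0.36. In the same order they were at -1.68, -1.78 and -1.31 with library totals and -1.89, -1.91 and -1.63 with TPM. Of the 50-base stretches of Ube2q2, 16.4% also occur in Gm4895. Ube2cbp rose by 1.995 from a mean of 2.92 CPM in Ctrl libraries. Ube2ql1 was near the limit of detection, at 0.17, 0.09 and 0.22 CPM in Ctrl, 0.55, 0.46 and 0.64 in Cu-Cys and 1.10, 1.13 and 1.68 in Cadict libraries, and its log2 fold change of 2.99 had an SE of 0.40.

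The share of each gene within the E2 transcript pool does not depend on how libraries are scaled against each other. The size of the pool does depend on the measure, and from Ctrl to Cadict libraries it fell in TPM and rose in counts. The TPM of the 34 Ube2 genes summed to 3687 ± 76.5 in Ctrl, 3712 ± 42.9 in Cu-Cys and 3403 ± 157 in Cadict libraries (SD, n = 3), and these genes took 0.359%, 0.379% and 0.484% of all counts. In Ctrl libraries Ube2c was the most abundant E2 transcript per length, at 22.5% ± 0.36 of the pool (SD, n = 3), followed by Ube2s (11.2%) and Ube2d3 (8.72%). In Cadict libraries Ube2d3 was first at 20.6% ± 0.73, followed by Ube2s (11.5%), while Ube2c was the tenth at 3.66% ± 0.18. Ube2s stood second in all 3 groups. Ube2b went from 3.52% to 8.44%, Ube2f from 1.40% to 4.996% and Ube2g2 from 1.14% to 4.33%. Cu-Cys libraries kept the first 3 genes of the Ctrl libraries in the same order (Ube2c, Ube2s and Ube2d3), with 43.5% of the pool against 42.5%.

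**Figure D3:**
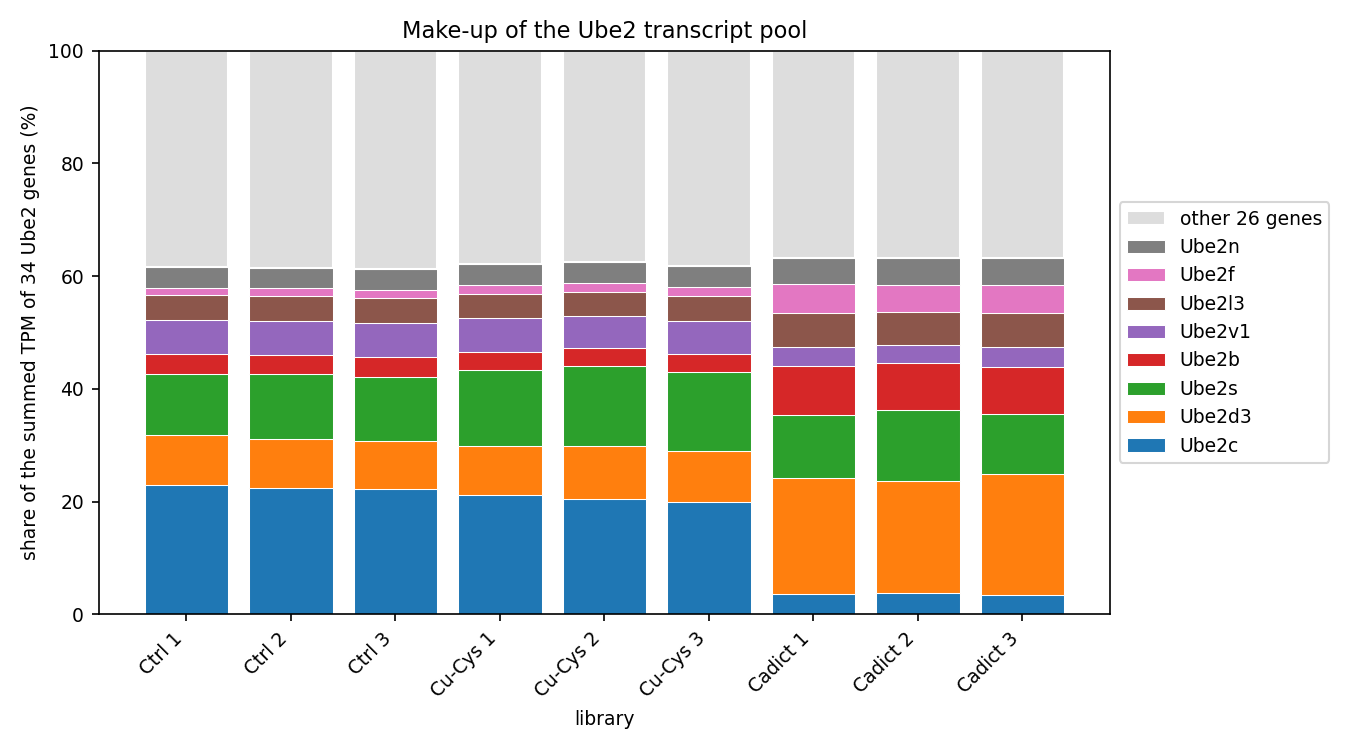
Share (%) of the summed TPM of the 34 Ube2 genes held by 8 of them and by the other 26 together, stacked for each library. Ube2c fills 20.6% to 22.5% of the pool on average in Cu-Cys and Ctrl libraries and 3.66% in Cadict libraries, where Ube2d3 fills 20.6%.

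Ratios of counts of 2 related genes within a library are also free of scaling, and the effective length of each member varied by at most 0.17 on the log2 scale between libraries. For 14 such pairs they are given as a description, with no test, since the pairs were set with the values known. The Ube2d3 to Ube2d1 ratio was 25.6 times higher in Cadict than in Ctrl libraries, with a mean log2 ratio of 8.54 ± 0.35 against 3.86 ± 0.06 (SD, n = 3). The Ube2g2 to Ube2g1 ratio was 8.40 times higher and turned over, from 0.42 in Ctrl libraries to 3.52 in Cadict libraries. The Ube2l3 to Ube2l6 ratio was 7.11 times higher, Ube2s to Ube2c 6.29, Ube2q1 to Ube2q2 5.09, Ube2f to Ube2m 4.51 and Ube2b to Ube2a 2.68. Ube2n and Ube2v2 stayed closest among partners, with a ratio 1.16 times that of Ctrl, whereas Ube2n to Ube2v1 was 2.16 times higher. The Ube2j2 to Ube2j1 ratio overlapped between Cadict and Ctrl libraries.

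**Figure D4:**
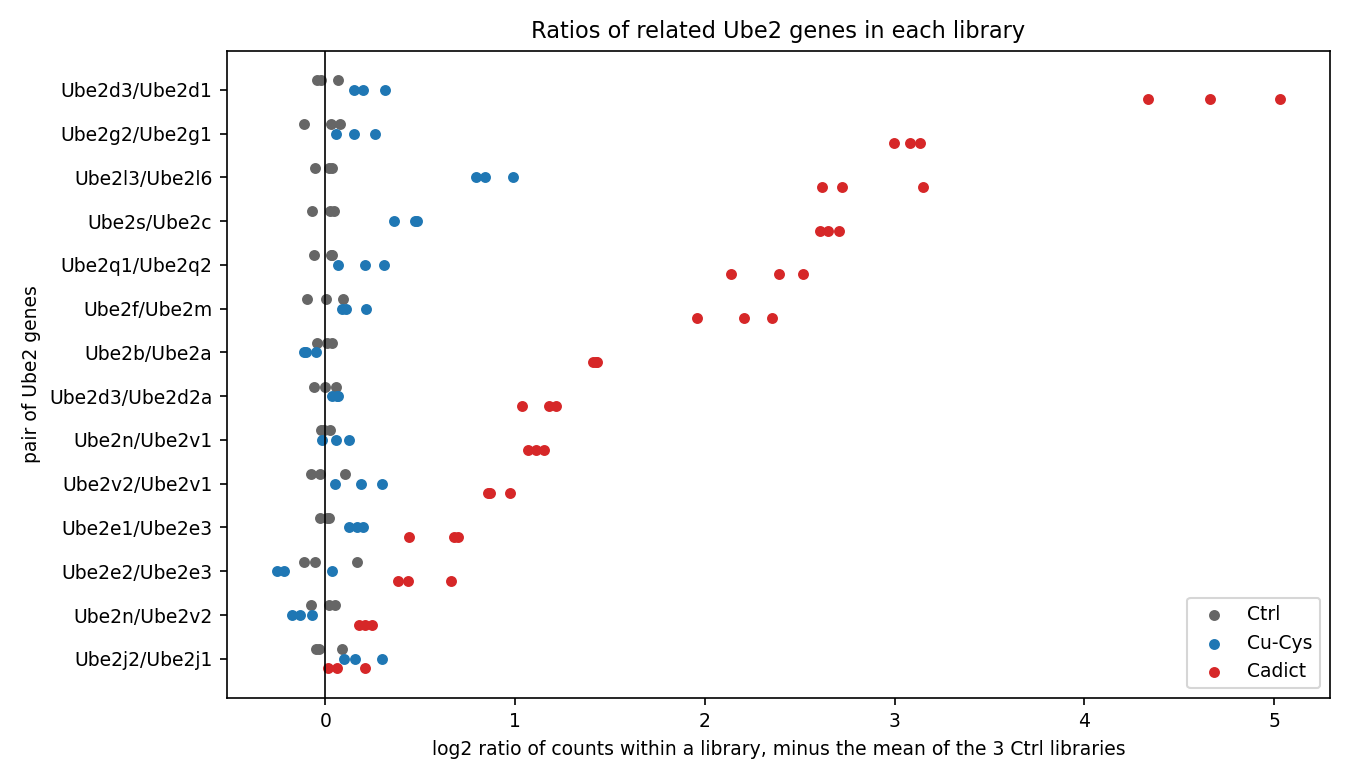
Log2 ratio of the counts of 2 Ube2 genes within each library, minus the mean of the 3 Ctrl libraries, for 14 pairs of related genes, with a point for each library. Cadict libraries lie 4.68 above Ctrl on average for Ube2d3/Ube2d1 and 3.07 for Ube2g2/Ube2g1, and 0.10 for Ube2j2/Ube2j1.

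The changes in Cu-Cys against Ctrl were small. With edgeR's quasi-likelihood test 0 passed the 2-fold threshold upward in Cu-Cys against Ctrl and 0 downward, where 0.167% and 1.47% of all genes did, while 22 of the 33 had an unadjusted p under 0.05, as did 52.5% of all genes. DESeq2's Wald test also called 0 in each direction. With adjusted p not above 0.05 as the rule, 16 were higher and 2 lower, against 22.6% and 22.4% of all genes. Their median log2 fold change was 0.14, and that of all genes 0.01. With TPM 4 were higher and 2 lower, against 7.51% and 29.4% of all genes, and with library totals 11 and 2, against 15.4% and 28.9%, where the median was 0.08 against -0.06. Of the 16 rises 15 kept their sign under the same 4 other scalings, all but Ube2l3 (0.13, or -0.02 with TPM), and both falls kept theirs. Library totals and TPM lowered every tested Ube2 gene here too, so a fall could not turn under them.

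Among genes of at least 10 CPM, Ube2s had the largest rise in Cu-Cys against Ctrl, 0.47 (SE 0.07, edgeR adjusted p = 0.000147), which is 1.38-fold. Ube2f rose by 0.34 (edgeR adjusted p = 0.000205), Ube2q1 by 0.32 (0.000124) and Ube2g2 by 0.30 (0.00187). In TMM-scaled CPM, given above, the Cu-Cys values of these 4 genes lay over all Ctrl values and under all Cadict values. The place of Ube2s below Cadict depended on the scaling. Its log2 fold change in Cadict against Cu-Cys was 0.78 under TMM, -0.10 with library totals and -0.40 with TPM. Ube2l6 fell by 0.75 (SE 0.10, edgeR adjusted p = 2.68e-05), 1.68-fold lower, and Ube2h by 0.41 (SE 0.05, edgeR adjusted p = 9.88e-06). The smaller rises included those of Ube2v2 (0.30), Ube2k (0.25), Ube2j2 (0.22), Ube2d3 (0.19), Ube2e1 (0.18), Ube2n (0.17), Ube2z (0.17), Ube2g1 (0.14) and Ube2l3 (0.13), and the low-count genes Ube2cbp and Ube2ql1 rose by 0.85 and 1.75. Ube2b, Ube2d1, Ube2w and Ube2c, all past the 2-fold threshold in Cadict, had log2 fold changes between -0.04 and 0.03 in Cu-Cys, none past the test. The other genes not past it were Ube2m (0.20), Ube2t (0.18), Ube2d2a (0.13), Ube2q2 (0.13), Ube2v1 (0.12), Ube2o (0.09), Ube2r2 (0.09), Ube2a (0.09), Ube2j1 (0.04), Ube2e3 (0.02) and Ube2e2 (-0.12). Of these 15 genes, 4 passed it under at least 1 alternative, all of them as rises. With DESeq2's size factors in edgeR, Ube2m (0.23, adjusted p = 0.0494), Ube2t (0.20, adjusted p = 0.0363), Ube2d2a (0.16, adjusted p = 0.0361) and Ube2v1 (0.14, adjusted p = 0.0215) passed. The same 4 passed when Cadict replicate 2 was left out of edgeR's shared fit, with adjusted p from 0.00419 (Ube2m) to 0.0342 (Ube2t). All but Ube2t passed without Cadict replicate 3 (adjusted p 0.0215 to 0.0448), Ube2t passed without Ctrl replicate 2 (adjusted p = 0.04), Ube2v1 without Cu-Cys replicate 2 (0.0457), and Ube2d2a (0.0342) and Ube2v1 (0.00739) with DESeq2's Wald test.

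Cadict against Cu-Cys shares the Cadict libraries with the first comparison, so its values are given beside them and not as a second finding. At the 2-fold threshold 13 Ube2 genes were higher and 3 lower, against 18.6% and 23.6% of all genes, while with adjusted p not above 0.05 these were 24 and 8, against 40.3% and 45.6%. With library totals 13 were higher and 16 lower at an adjusted p not above 0.05, against 17.3% and 72% of all genes, and with TPM 8 and 19, against 11.4% and 77.6%. The median log2 fold change was 0.78, and that of all genes was -0.10. Ube2g2 (2.83), Ube2f (2.69), Ube2b (2.44) and Ube2d3 (2.21) were again the largest rises among genes of at least 10 CPM, and Ube2d1 (-2.22), Ube2t (-1.82) and Ube2c (-1.44) were past the 2-fold threshold downward. Ube2l6 was lower by 0.44 in Cadict than in Cu-Cys libraries, and Ube2h was higher by 0.56, turning negative with library totals. Ube2s was higher by 0.78, which turned to -0.10 with library totals and -0.40 with TPM.

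The E2s stand between E1s, ligases and the modifiers themselves, and lists of these were described by counts in Cadict against Ctrl. The counts were made under TMM, where 40.6% of all tested genes rose and 47.1% fell, with a median log2 fold change of -0.13. Of 10 ubiquitin and modifier genes 9 rose at an adjusted p of at most 0.05 and 0 fell, with a median log2 fold change of 1.41. Ubb, a polyubiquitin gene, went from 832 ± 19.3 to 8693 ± 423 CPM, by 3.39, or by 2.43 with library totals and 2.09 with TPM. Of 9 E1 genes 5 rose and 2 fell. Sae1, a subunit of the SUMO E1, rose by 1.02 under TMM, which was 0.07 with library totals and -0.28 with TPM, and Uba6, the E1 of Ube2z, fell by 1.14. Of the 8 tested E2 and UEV genes outside the prefix 5 rose and 2 fell, among them Tsg101 of the ESCRT pathway (1.51) and Uevld (-2.16). With library totals and TPM these came to 0.56 and 0.22 for Tsg101 and to -3.12 and -3.04 for Uevld.

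Of the 65 tested ligase genes, each taken once, 28 rose and 27 fell in Cadict against Ctrl, or 43.1% and 41.5%, near the 40.6% and 47.1% of all genes. Of 16 APC/C genes, the partners of Ube2c and Ube2s, 6 rose and 8 fell, with Cdc23 at -1.97 and Anapc16 at 1.96. Of 14 cullin-RING and NEDD8 genes, served by Ube2f, Ube2m and Ube2r2, 8 rose and 3 fell, with Cul7 at -2.68 and Rbx1 at 1.87. Of 9 ligase genes of the endoplasmic reticulum 5 rose and 3 fell, with Rnf139 at -2.50 and Marchf6 at 1.48. Of 8 DNA damage and histone ligases, which include partners of Ube2a and Ube2b, 2 rose and 4 fell, with Rnf168 at -1.84 and Shprh at -1.75. Of 7 lysine-63 ligases, the partners of Ube2n, 1 rose and 5 fell, with Birc2 at -2.004 and Rnf168, held by both lists. Of 5 SUMO ligases 3 rose and 2 fell, with Pias3 at -2.42 and Pias4 at 1.00. Of 8 CTLH genes, the ligase of Ube2h, 3 rose and 4 fell, with Gid8 at -1.54 and Armc8 at -1.44. With library totals all of the falls named here were larger by about 0.95, and the rises of Anapc16 (1.01), Rbx1 (0.91), Marchf6 (0.53) and Pias4 (0.05) remained positive, while Pias4 was at -0.29 with TPM.

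Transcript length was set beside these changes because the deposited TPM and the scaled counts gave other directions. The effective length of a member varied by at most 0.17 on the log2 scale between libraries. TPM minus TMM was -1.37 to -1.01 among members of at least 10 CPM in Cadict against Ctrl. Library totals minus TMM, which holds no length, was -0.96 to -0.94 in all tested members. Whether length has a part in the turned directions was not tested. Over 10697 genes the log2 fold change in Cadict against Ctrl fell with effective length (Spearman's rho -0.226 across genes, a description, as genes share libraries), and over 32 Ube2 genes rho was -0.0033. The shortest of 4 equal classes of genes, up to 1522 bases, had a median of 0.47, where 12 Ube2 genes had 0.94. In the second class, 1522 to 2575 bases, the medians were -0.17 for all and 1.63 for 9 Ube2 genes, among them Ube2g2 and Ube2b. In the third they were -0.35 and 0.29 (7 genes) and in the longest -0.43 and 0.49 (4 genes). The Ube2 median was the higher in every class.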

How the data were processed

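The authors deposited one table with an expected count per gene and library, estimated without normalization, and the FPKM and TPM derived from it. The labels' processing notes name HISAT2 2.1.0, Bowtie2 2.3.4.3 and RSEM 1.3.1, without roles, and the builds GRCh38.p13 and GRCm39. The labels describe a column kit and DNA nanoball sequencing, the paper TRIzol and an Illumina instrument. A further 9 columns of normalized counts were not used. Expected counts were rounded and fitted in R 4.3.3 with edgeR 4.0.16 (TMM, filterByExpr, one quasi-likelihood model of 9 libraries), and p-values were adjusted by Benjamini-Hochberg over 11949 genes. The procedure was tested on simulated data in which most genes were unchanged, as TMM takes them to be. That simulation could not show how the choice of scaling affects these results. Effective length was taken from the deposited count and FPKM where FPKM was at least 1. Alternatives were DESeq2 1.42.0 size factors and Wald test, library totals, other filters, a replicate block, limma 3.58.1 on log2 of the deposited TPM, and leaving out each library. Correlations of the deviations of same-numbered libraries were -0.20 to 0.15 over 8551 genes, so numbers were not treated as pairs. No 2 replicates agreed within sampling noise (mean chi-square 1.88 to 23.3).

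Ube2 genes are named with their changes, except 1 that is not reported here by itself but stays in the counts. Values by library are given for up to 6 rises and 6 falls in Cadict against Ctrl among 2-fold calls with a mean of at least 10 CPM, up to 4 and 4 in Cu-Cys against Ctrl at an adjusted p of at most 0.05, and the E2s of other modifiers, with Ube2g1 and Ube2ql1 added after their values were seen. Of each partner list the 2 largest changes are named, where reported here. The members and lists were chosen with earlier results of these data known. Stretches of 50 bases were compared in GENCODE M21 transcripts (GRCm38), and promoters are RefSeq's (GRCm38.p6), searched with Python.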

Additional observations from a re-analysis of the deposited data

How the results depend on the processing

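Of the alternatives tried, only library totals and TPM moved a count of Ube2 genes by over 1.5 times. Of those called at the 2-fold threshold in Cadict against Ctrl (17 higher, 4 lower), library totals gave 7 and 8, limma on log2(TPM + 1) 4 and 10, and on log2(TPM + 0.1) 5 and 11. In Cadict against Cu-Cys (13 and 3) these gave 5 and 8, 4 and 9, and 4 and 9. In Cu-Cys against Ctrl 16 were higher at an adjusted p of at most 0.05, and 4 with TPM at either pseudocount. Leaving out each library gave 16 to 17 higher and 4 lower in the first comparison, 13 and 3 in the second, and 11 to 20 and 2 in the third. With the replicate block the counts were 17 and 4, 13 and 3, and 15 and 2, so that at most 1 call was lost.

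Log2 fold changes in Cadict against Ctrl that turned negative, given for library totals, log2(TPM + 1) and log2(TPM + 0.1), were -0.17, -0.54 and -0.54 for Ube2e3, -0.90, -1.21 and -1.24 for Ube2g1, -0.80, -1.11 and -1.15 for Ube2h, -0.67, -0.98 and -1.01 for Ube2j1, -0.57, -0.87 and -0.90 for Ube2j2, -0.13, -0.47 and -0.48 for Ube2k, -0.0897, -0.50 and -0.51 for Ube2m, and -0.60, -0.95 and -0.95 for Ube2v1. With the 2 TPM settings alone they were -0.29 and -0.30 for Ube2a, -0.0551 and -0.0555 for Ube2d2a, -0.0375 and -0.0393 for Ube2e2, -0.0818 and -0.0820 for Ube2s, and -0.0514 and -0.0527 for Ube2v2. Library totals minus TMM came to between -0.96 and -0.94 in every tested Ube2 gene, beside -0.95 for the median of all genes. Why the TMM factors differ between the groups was not tested. Depth limits Ube2ql1 and Ube2d2b.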
